A study of Homo sapiens with 51 samples.

Results

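Replication-dependent histone genes make the bulk histones that package newly copied DNA. They were taken as the protein-coding genes of RefSeq GRCh38.p14 whose symbols name an H1 linker histone from H1-1 to H1-6 or a numbered clustered H2A, H2B, H3 or H4 gene, which gave 69 of 20056 protein-coding genes. These were 6 H1, 17 H2A, 18 H2B, 13 H3 and 15 H4 genes. On chromosome 6, 55 of them lie in 3 blocks: 34 genes at 25726063 to 26285534, 5 at 27132316 to 27147562 and 16 at 27807479 to 27893891. On chromosome 1, 11 genes lie at 149782689 to 149887965 and 2 at 228457364 to 228458558, and H4C16 stands alone on chromosome 12 at 14770720 to 14771131. The measured regions within 1 kb of either end of such a gene numbered 110 of 100584 in the day 0 table, 155 of 142087 in the BMP4 table and 143 of 162317 in the SMADi table.

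The cells are H1, an established human embryonic stem cell line, and open chromatin was profiled with ATAC-seq, where an enzyme cuts accessible DNA and tags the pieces for sequencing. There are 3 lines, WT, KO and ΔATG (here DATG), and the labels name neither the edited gene nor how many clones each line represents. The 51 libraries are undifferentiated cells at day 0 (2 libraries a line), cells under BMP4, labelled mesoderm, on days 1 to 5 (2 libraries a line and day), and cells under SMADi, a neural induction medium labelled neuroectoderm, on days 1, 4 and 5. Under SMADi, KO day 4, DATG day 1 and DATG day 5 have 1 library each and the other groups have 2. Replicates are lettered a and b, and pairs of values are given in that order. The labels do not say that replicates were separate cultures, so every p-value rests on a spread between libraries that may be technical.

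A replication-dependent histone gene is short, has no introns in the usual case, and ends in a stem-loop in place of a poly(A) tail. NPAT, a substrate of the cyclin E and CDK2 kinase, gathers at these clusters in a nuclear body and switches them on when DNA synthesis begins. The stem-loop binding protein SLBP then carries the mRNA through processing and translation. H2A and H2B genes often sit head to head and share a short promoter, H3 and H4 form the other core pair, and H1 binds the linker DNA between nucleosomes. Human embryonic stem cells divide with a short first gap phase, and so make these histones for much of their cycle.

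The starts carry a recognisable set of short elements, shown here because the accessibility peaks described next sit on them. Each sequence is the 250 bases before the start, read in the direction of transcription (RefSeq, GRCh38.p14). Capitals mark every match on either strand to CCAAT, the element bound by NF-Y, to the TATA box TATAAA and to the octamer ATTTGCAT, which POU2F1 binds. The H2BC11 stretch at chr6:27132796-27133045, minus strand, is the promoter it shares with H2AC11 and had the highest day 0 accessibility of the family. The others are H3C2 at chr6:26032100-26032349, H4C4 at chr6:26189113-26189362, H3C7 at chr6:26250636-26250885 and H1-1 at chr6:26017788-26018037, all on the minus strand. H3C2 and H4C4 had the highest H3 and H4 starts, H3C7 fell at its start and rose inside the gene under BMP4, and H1-1 differed between lines.
H2BC11: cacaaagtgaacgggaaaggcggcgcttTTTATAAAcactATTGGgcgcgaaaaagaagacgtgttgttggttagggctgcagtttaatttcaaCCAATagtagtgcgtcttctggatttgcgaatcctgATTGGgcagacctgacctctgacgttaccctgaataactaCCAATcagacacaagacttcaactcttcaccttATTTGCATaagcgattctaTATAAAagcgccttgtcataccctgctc
H3C2: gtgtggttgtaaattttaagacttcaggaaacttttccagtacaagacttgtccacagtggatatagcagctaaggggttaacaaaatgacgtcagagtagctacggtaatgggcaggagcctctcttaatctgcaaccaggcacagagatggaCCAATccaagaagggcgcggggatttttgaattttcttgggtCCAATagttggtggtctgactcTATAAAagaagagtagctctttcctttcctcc
H4C4: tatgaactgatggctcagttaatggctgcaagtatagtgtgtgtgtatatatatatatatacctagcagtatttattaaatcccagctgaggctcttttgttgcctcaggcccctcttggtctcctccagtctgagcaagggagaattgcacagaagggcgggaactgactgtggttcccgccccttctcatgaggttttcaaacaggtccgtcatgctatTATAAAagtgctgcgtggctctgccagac
H3C7: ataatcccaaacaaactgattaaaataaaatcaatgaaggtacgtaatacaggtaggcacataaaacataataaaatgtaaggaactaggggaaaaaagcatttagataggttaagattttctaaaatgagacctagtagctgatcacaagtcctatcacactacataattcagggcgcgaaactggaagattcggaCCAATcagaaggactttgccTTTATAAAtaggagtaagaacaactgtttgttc
H1-1: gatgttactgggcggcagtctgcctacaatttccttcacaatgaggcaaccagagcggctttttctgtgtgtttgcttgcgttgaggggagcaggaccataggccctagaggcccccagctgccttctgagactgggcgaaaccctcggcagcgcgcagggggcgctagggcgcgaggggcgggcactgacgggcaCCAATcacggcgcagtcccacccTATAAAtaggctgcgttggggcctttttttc

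Of the 69 genes, 64 had such a sequence. CCAAT stood in 84.4% of the 64, against 34.5% of 15843 protein-coding promoters of the same length. It was in each H1, H2A, H2B and H3 promoter searched but in only 3 of 13 H4 promoters. TATAAA stood in 65.6% against 9.23%, and ATTTGCAT in 40.6% against 1.65%. The octamer divided the classes: 68.8% of H2A and 77.8% of H2B promoters held it, 1 of 11 H3 promoters did, and none of the 6 H1 or 13 H4 promoters did. In the printed set only H2BC11 has it, and H4C4 has TATAAA without CCAAT. The motifs can overlap, as where TATAAA is read on both strands of TTTATAAA, and a match is a description of these letters.

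Libraries held 4616521 to 7516259 counts in the day 0 table, 4019778 to 13850448 in the BMP4 table and 7086918 to 23252871 in the SMADi table. Levels are CPM, counts relative to the TMM-scaled library total. PCR reads are not independent molecules, so counting error understates the error of low values. Among marker genes, the summed CPM of 6 mesoderm markers rose in WT from 70.3 to 77.0 on BMP4 day 1 to 110 to 125 on day 5, and that of neuroectoderm markers from 54.6 to 54.8 on SMADi day 1 to 77.1 to 87.3 on day 5. The neuroectoderm lists of the mutant lines ended at 94.0 to 95.9 in KO and 88.7 in DATG, but SIX3, a forebrain marker, differed: on day 5 it stood at 18.8 and 15.1 CPM in WT, 6.80 and 5.17 in KO and 5.47 in DATG, from 1.68 to 2.66 on day 1 in all lines. SOX1, a neural marker, went the other way on day 5, with 12.4 and 13.2 in WT, 27.6 and 30.9 in KO and 25.7 in DATG. The lines thus differed in neuroectoderm markers under SMADi, and the part of this in the differences between lines given below was not tested. Mesoderm markers moved under SMADi too. In KO each but TBXT was higher in both day 5 libraries than in both day 1 libraries. MESP1 there went from 19.5 and 24.3 to 32.6 and 34.1 CPM. In WT the same held for MESP1, PDGFRA and APLNR, while HAND1 and GATA6 overlapped and TBXT was lower. Rises in mesoderm markers were therefore not particular to BMP4. Over the same days under SMADi, 64% of protein-coding gene starts outside the histone genes were called higher in KO, with all libraries, and 16.6% in WT. These rises are thus not read as particular to mesoderm markers, and the part of the general rise in them was not tested. The endothelial and blood markers CDH5, GATA1, PECAM1 and PTPRC had no region. Replicate b of the libraries labelled KO day 1 SMADi is in doubt. Scored on 1466 regions that separated the mutant lines under BMP4, where 0 is KO replicate a and 1 the DATG library of that day, it stood at 0.828. KO test results under SMADi are therefore given with and without it. In bulk libraries, fewer cells with an open region and a less open region in each cell cannot be told apart.

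Of the 69 genes, 57 had a region within 1 kb of an end in every table and 12 had none in any. The 12 include the testis-type genes H1-6, H2AC1 and H2BC1, and also H2BC3, H3C3 and H4C7. The others are the copies at the chromosome 1 cluster, H4C14 and H4C15, H3C14 and H3C15, H2AC18 and H2AC19. Their promoters are near copies: 300 of 300 bases are the same in the H4 pair, 296 of 296 in the H3 pair and 299 of 299 in the H2A pair. Whether the authors kept reads that map to more than 1 place is not given in the sources used here, so the lack of a region at these pairs cannot be read as closed chromatin. With genes of 494 bp at the median, 39 of the 110 day 0 regions lay within 1 kb of 2 or more members, and such regions are named here by the nearest gene.

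Accessibility peaked at the starts. At day 0 the 40 regions centred from 250 bases before to 50 bases after a start had a median of 16.4 CPM, against 6.22 CPM for the 55 regions farther downstream. Starts within 1 kb of both an H2A and an H2B gene had a median of 29.1 CPM (10 regions), and starts near a single member 14.9 CPM (23 regions). By class the medians at starts were 14.9 for H1, 28.7 for H2A, 21.5 for H2B, 10.9 for H3 and 16.3 CPM for H4. All regions have the same length, so these levels are per equal length.

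**Figure D1:**
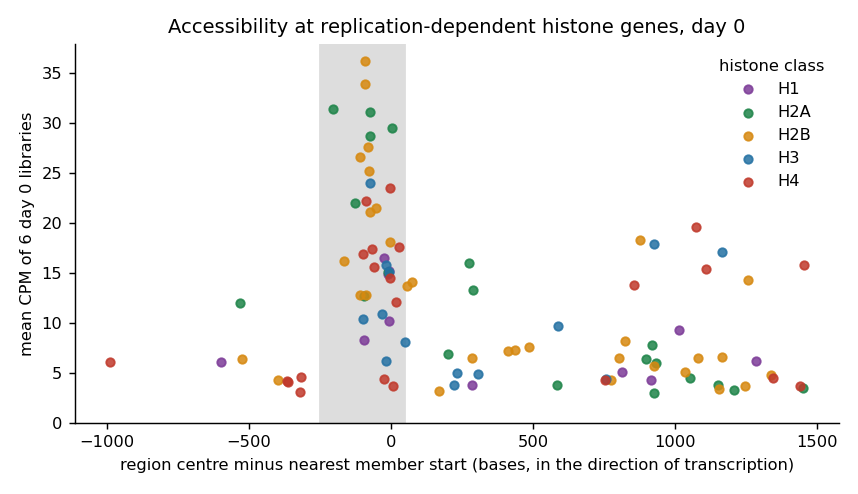
Mean CPM of the 6 day 0 libraries (y) for each region near a replication-dependent histone gene, against the distance in bases of its centre from the nearest member start (x, positive in the direction of transcription). Points are coloured by histone class and the grey band is the start window, which holds the highest point of each class.

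The most accessible region of each class was followed in each library. The H2BC11 start measured 38.7 and 36.1 CPM in WT, 37.6 and 35.8 in KO and 33.8 and 35.6 in DATG. The region here called the H2AC12 start is placed by the start of H2BC12, since no start was given for H2AC12, and lies near both genes. It measured 29.0 and 29.8 in WT, 35.0 and 31.1 in KO and 31.2 and 32.6 in DATG. The H2BC11 and H2AC12 regions both stood above the H3, H4 and H1 regions given next in all 6 libraries.

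The H3C2 start measured 22.5 and 24.8 CPM in WT, 25.7 and 25.2 in KO and 23.3 and 22.7 in DATG. At the H4C4 start the values were 20.9 and 25.7, 23.2 and 21.7, and 23.7 and 25.9 in the same order. At H1-2, a somatic linker histone, they were 17.6 and 15.4, 14.5 and 18.5, and 18.3 and 14.9. At H1-2 all lines overlapped and at H4C4 WT overlapped both mutant lines, while KO lay above WT at H3C2 and WT lay lowest at H2AC12.

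No histone gene region differed between lines in undifferentiated cells. The day 0 comparisons ask whether the lines differ before differentiation. With edgeR's quasi-likelihood test, adjusted over all regions of the table, 0 of 110 regions were called for KO against WT, where 0.0537% of all regions were called higher and 0.0318% lower. For DATG against WT, 0 were called (0.0398% and 0.165% over all regions), and for KO against DATG also 0 (0.249% and 0.0815%). Unadjusted p fell under 0.05 at 8, 9 and 8 of the 110 regions, and DESeq2 called 0 in each comparison. With 2 libraries a line, small differences would not have been detectable.

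Under BMP4 histone regions were called in both directions within the first 3 days, as were regions across the genome. In WT, 35 of 155 regions were higher on day 3 than on day 1 and 32 were lower. These shares lay a little above the 18.6% and 15.7% of all regions. By day 5, 22 were higher and 19 lower, both under the shares of all regions (20.3% and 14.7%). At other protein-coding gene ends the calls were mostly upward, 24.6% higher and 6.9% lower on day 3. Scaling by total counts moved the day 3 split to 30 higher and 43 lower and the day 5 split to 10 and 28. It moved the median of all regions from -0.02 to -0.12 on day 3 and from -0.03 to -0.17 on day 5 (log2). Leaving out WT day 1 replicate a left 20 higher and 15 lower on day 3, and leaving out WT day 3 replicate a left 27 and 14. On day 5 the same was 11 and 10 without WT day 1 replicate a and 16 and 9 without WT day 5 replicate a.

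Rises and falls were called in each class and in each chromosome 6 block, and no test between classes or blocks was run. On day 3, 7 of 16 H1 regions were lower and 3 higher, with a median log2 change of -0.48, and 10 of 27 H3 regions were lower and 6 higher (median -0.22). Of 43 H2B regions 11 were higher and 4 lower, of 28 H2A regions 7 and 4, and of 41 H4 regions 8 and 7. The chromosome 6 blocks held 63 of the 67 calls: 23 higher and 18 lower of 84 regions in the first, 2 and 2 of 11 in the second, 8 and 10 of 38 in the third. On chromosome 1, H3C13, H2BC18 and H2AC25 regions made up 2 higher and 2 lower of 17, and none of the 5 regions at H4C16 on chromosome 12 was called.

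The window inside the genes held rises and no falls on day 3, while the other windows held both. Regions centred 51 to 500 bases past a start, which lie inside these short genes, were higher at 16 of 31 on day 3 and lower at 0 (51.6% against 26.1% higher at other gene ends in the same window). Their median log2 change was 0.58, against 0.23 at those other ends. At the starts, 8 of 40 were higher and 12 lower (20% and 30%), where 36.7% of other gene starts were higher and 3.38% lower, and the median was -0.21 against 0.27. The windows were drawn after the values had been seen, so this is a description with no test of the windows against each other. Between 500 and 1500 bases past the start, 6 of 57 were higher and 12 lower (10.5% and 21.1%), where 19.9% of other gene ends in that window were higher and 6.62% lower.

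**Figure D2:**
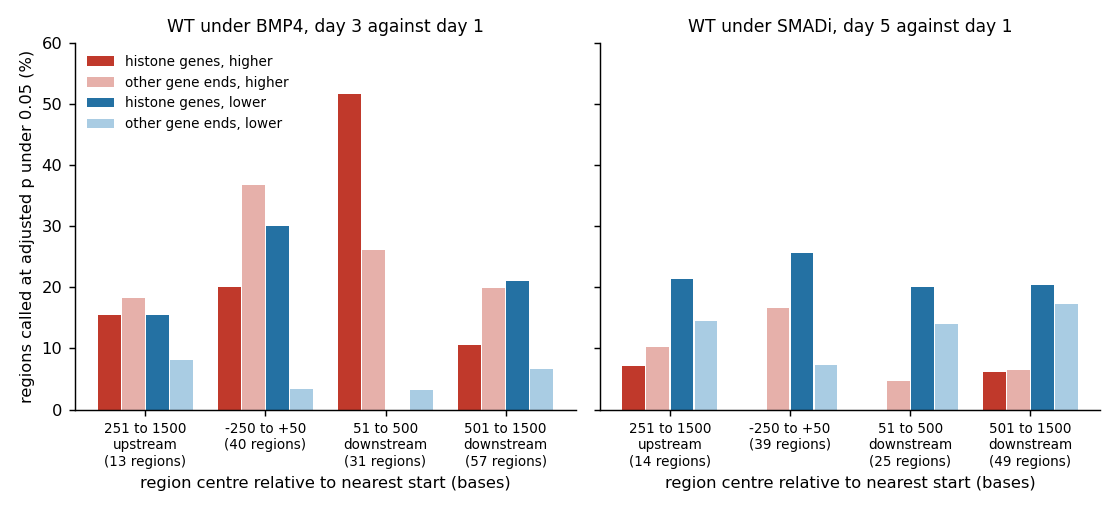
Percent of regions called higher (red shades) or lower (blue shades), for histone genes (dark) and other protein-coding gene ends (light), by distance in bases of the region's centre from the nearest start (x). Left, WT under BMP4, day 3 against day 1, where 51.6% of histone regions 51 to 500 bases past the start were higher and 30% of histone starts were lower. Right, WT under SMADi, day 5 against day 1, where 25.6% of histone starts were lower and 0 higher.

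The day 3 gene-body rise was present under each setting tried, whereas the start falls were not equally firm. On day 3 the window inside the genes gave 15 higher and 0 lower with total count scaling and 10 and 0 with DESeq2. Leaving out each library in turn gave 11 to 17 higher and 0 lower. At the starts the fallen regions numbered 18 with total count scaling, 3 with DESeq2 and 2 to 12 when a library was left out, and the risen ones 6, 5 and 2 to 8. By day 5 the contrast had narrowed, with 8 of 31 higher and 0 lower inside the genes (25.8% higher, against 18.5% higher and 4.86% lower at other gene ends). At the starts 4 of 40 were higher and 3 lower (10% and 7.5%, against 38.6% and 3.62%). The day 5 counts inside the genes were 4 higher and 1 lower with total count scaling and 4 and 0 with DESeq2. At the starts they were 1 and 9, and 2 and 0. Shares of other gene ends under these settings are not given, so the day 5 excess inside the genes holds for the main setting only.

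The level of the gene-body window in each library shows the timing. Its mean in WT was 5.61 and 5.73 CPM on day 1, 8.27 and 8.45 on day 3 and 7.12 and 7.55 on day 5. KO went from 5.58 and 5.74 to 7.77 and 7.89 by day 3, and DATG from 5.28 and 5.78 to 8.01 and 8.17, so in each line both day 3 libraries stood above both day 1 libraries. Meanwhile the mean at the starts was 14 and 14.3 CPM in WT on day 1 and 13.6 and 15.1 on day 3, which overlap. The starts of other genes went from 15.1 and 15.8 to 19.1 and 19.3. The rise at gene ends across the genome ran beside the histone gene-body rise, and its part in that rise was not tested.

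**Figure D3:**
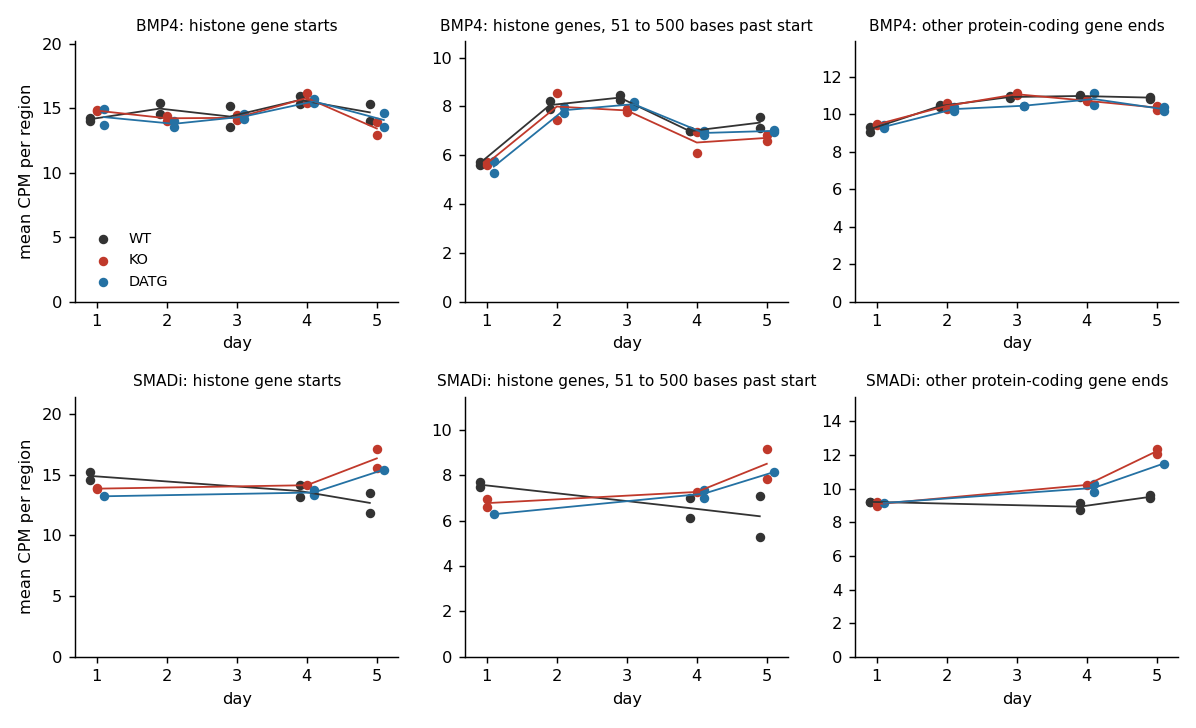
Mean CPM per region (y) by day (x) under BMP4 (top) and SMADi (bottom) at histone gene starts, inside histone genes (51 to 500 bases past the start) and at other protein-coding gene ends. Points are libraries and lines join the means of WT, KO and DATG. The gene-body window goes from 5.61 and 5.73 CPM on day 1 to 8.27 and 8.45 on day 3 in WT under BMP4, while the starts read 14 and 14.3 on day 1 and 13.6 and 15.1 on day 3.

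H3C7, an H3 gene of the first chromosome 6 block, showed both movements. Its region 289 bases past the start measured 4.23 and 3.77 CPM in WT on day 1, 9.71 and 9.96 on day 3 and 9.66 and 7.42 on day 5. The region on its start, whose promoter is printed above, measured 8.81 and 6.67 on day 1, 3.31 and 5.68 on day 3 and 5.06 and 5.48 on day 5. Day 1 and day 3 did not overlap in either region, and they moved in opposite directions. On day 3 the inner region had risen by 1.29 ± 0.21 (log2 fold change ± SE, edgeR adjusted p 3.33e-07) and the start had fallen by 0.87 ± 0.21 (adjusted p 0.000807).

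The same opposition was called at H1-3, H2AC4, H3C10 and H3C13. H1-3, a linker histone gene, had 11.3 and 9.80 CPM at its start on day 1 and 5.44 and 4.52 on day 3, and 1.85 and 2.05 against 3.53 and 3.36 inside the gene. H3C13 had 4.85 and 3.77 against 2.28 and 2.66 at the start and 2.64 and 1.83 against 5.15 and 5.45 inside. The day 1 and day 3 libraries were apart in all 4 of these comparisons. At H1-3 the start fell by 1.06 ± 0.19 (edgeR adjusted p 3.64e-06) and the inner region rose by 0.83 ± 0.29 (adjusted p 0.0213). Over the 23 genes with a region in both windows, the inner change exceeded the start change at 22 on day 3, by 0.69 at the median, and at 16 on day 5, by 0.36. The windows were drawn after these values were seen and the same count was not made at other genes, so this is a description only.

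The other gene-body rises of largest size were at H2A and H2B genes. H2AC8, an H2A gene, measured 9.61 and 12.6 CPM in WT on day 1, 25.1 and 26.8 on day 3 and 23.9 and 18.5 on day 5 at 235 bases past its start. KO there went from 11.7 and 10.4 to 25.5 and 25.6 on day 3, and DATG from 11.4 and 10.4 to 24.1 and 25.8; in each line the day 3 libraries stood above the day 1 libraries. The WT change was 1.23 ± 0.15 (edgeR adjusted p 5.84e-11).

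H2BC6, an H2B gene, went from 4.23 and 4.84 CPM to 12 and 10.4 on day 3 and 8.28 and 7.76 on day 5, a change on day 3 of 1.32 ± 0.19 (edgeR adjusted p 1.14e-08). Its own start held 12.3 and 10.1 on day 1 and 9.27 and 8.57 on day 3, a difference of -0.33 ± 0.16 that did not pass (adjusted p 0.107). H2BC7 rose by 0.93 ± 0.19 and H2BC13 by 0.84 ± 0.17 on day 3. Of the 15 gene-body regions not called on day 3, 6 had a log2 change under 0, the lowest at H2BC18 (-0.50 ± 0.27).

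The 8 starts that rose on day 3 included 4 of H4 genes, which package DNA with H3. At the H4C4 start, WT went from 17.7 and 18.4 CPM on day 1 to 27.0 and 26.0 on day 3 and 22.5 and 20.9 on day 5. KO went from 17.5 and 15.0 to 27.3 and 28.5 and DATG from 17.2 and 18.7 to 22.8 and 27.5 over the first 3 days. The day 3 libraries exceeded the day 1 libraries in each line, and the WT change was 0.56 ± 0.14 (edgeR adjusted p 0.000914). H4C8 rose by 0.57 ± 0.14, H2AC15 by 0.49 ± 0.13, H4C5 by 0.49 ± 0.15, H2AC12 by 0.45 ± 0.13, H1-4 by 0.37 ± 0.14 and H2BC11 by 0.37 ± 0.13. H4C11, at 2.35 CPM on day 1 and 4.18 on day 3, rose by 0.81 ± 0.27. The starts that fell without a called inner rise were those of H4C13, H3C1, H2BC18, H1-2, H1-5, H3C8 and H4C2, by 0.45 to 0.73.

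Large rises were also called outside the start and inner windows. The region inside H3C11 at chr6:27871986-27872186 measured 4.50 and 4.84 CPM in WT on day 1, 14.1 and 12.2 on day 3 and 10.1 and 10.2 on day 5, a day 3 rise of 1.5 ± 0.18 (edgeR adjusted p 3.45e-11). Genes without a promoter sequence gave no start, so this region is placed 1448 bases past the H4C13 start although it lies within H3C11. The region 1093 bases past the H2BC17 start, beyond the gene, measured 4.50 and 4.41 on day 1, 9.56 and 11.4 on day 3 and 10.9 and 13.2 on day 5, a day 5 rise of 1.45 ± 0.20 (adjusted p 3.04e-09). In both, the later libraries all stood above both day 1 libraries. Upstream of H2BC10, the region at chr6:26272330-26272530 rose by 1.20 ± 0.19 on day 3 and 1.19 ± 0.20 on day 5.

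Falls were as large. The region 916 bases past the H1-5 start measured 5.91 and 5.71 CPM on day 1 and 1.69 and 1.74 on day 3, a change of -1.76 ± 0.29 (edgeR adjusted p 1.05e-06), and stood at 1.38 and 3.19 on day 5. The region between H1-4 and H2BC5, at -580 bases from the H2BC5 start, measured 5.99 and 7.75 on day 1 and 2.50 and 2.78 on day 3 (-1.38 ± 0.24). At H4C3, the region at chr6:26104391-26104591 measured 2.47 and 2.05 on day 1 and 0.460 and 0.799 on day 5, a change of -1.77 ± 0.49 (adjusted p 0.00255). Those day 5 values are near the floor and rest on few reads: the lowest mean of any histone region under BMP4 was 1.07 CPM, at H4C3. None of these falls overlapped between the days compared.

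KO and DATG cells repeated part of these changes in libraries of their own. From day 1 to day 5 under BMP4, KO had 13 regions higher and 23 lower (11.2% and 8.33% of all regions), and DATG had 14 and 17 (12.9% and 8.27%). The 6 regions higher in all 3 lines were at H2AC8, H2BC10, H2BC17, H2BC6, H3C7 and H3C11, of 22 called in WT. The 10 lower in all 3, of 19 in WT, were at H1-4, H1-5, H2AC16, H3C2, H3C7, H3C8, H3C11, H3C12, H4C3 and H4C5. No histone region was called in opposite directions in 2 lines. Overlaps between lines were not counted over all regions, so none of these is called particular to histone genes. At H2BC17 the day 5 change was 0.79 ± 0.23 in KO and 1.44 ± 0.26 in DATG, and the KO call was lost without KO day 1 replicate b (0.69) or KO day 5 replicate b (0.56). The KO total of 36 fell to 19, 14 and 21 without KO day 1 replicate a, day 1 replicate b and day 5 replicate a, and the DATG total of 31 to 15 and 14 without DATG day 1 replicate b and day 5 replicate a.

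In KO the inner regions rose at 8 of 31 and fell at 1 by day 5 (25.8% and 3.23%), where 9.26% of other gene ends in that window rose and 1.95% fell. In DATG 6 rose and 2 fell (19.4% and 6.45%, against 7.36% and 3.13%). No start rose in either line and 6 and 4 fell, where 13.9% of other starts rose and 2.58% fell in KO, and 16.1% and 2.49% in DATG. The difference between a mutant line and WT in the day 5 change was called at 0 of 155 regions for KO (0.762% higher and 1.33% lower over all regions) and 0 for DATG (0.0232% and 0.0528%). DESeq2 also called 0 in both, and unadjusted p fell under 0.05 at 15 and 10 regions. A fit with the replicate letter as a block called 1 region lower for KO and 0 for DATG. Apart from that call, no difference between lines in the BMP4 change of a histone region was detectable with 2 libraries a group.

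Few histone regions differed between lines under BMP4 once averaged over the 5 days. For KO against WT, 2 were higher and 4 lower (9.08% and 12.4% of all regions), and for DATG against WT, 2 were higher and 0 lower (4.11% and 5.22%). Calls were also few at other genes: of 40 histone starts 1 was higher and 1 lower in KO (2.5% each), against 3.25% and 4.31% of other gene starts. In DATG 0 of the 40 were called, against 0.801% higher and 2.98% lower at other starts. Both comparisons use the same WT libraries. The region 1439 bases past the H2AC8 start was higher in both: over days 1 to 5 WT measured 3.44 and 3.12, 3.72 and 3.26, 3.09 and 3.36, 2.90 and 4.05, and 1.69 and 2.62 CPM. KO measured 3.40 and 3.35, 3.92 and 5.30, 4.75 and 3.85, 3.79 and 4.65, and 5.99 and 5.18, and DATG lay between 2.97 and 5.79. The lines overlapped on days 1 and 4 and KO stood above WT on days 2, 3 and 5, and the differences were 0.49 ± 0.13 (edgeR adjusted p 0.00271) for KO and 0.42 ± 0.13 (0.0281) for DATG. The KO value was called under each alternative and the DATG value was not. The 4 lower regions in KO, at H4C3, H2BC8, H4C5 and the H2BC10 start, differed by -0.36 to -0.22, and each lost its call when some single library was left out.

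H1-1, a linker histone gene of the first block, had the largest difference between lines under BMP4. Under BMP4 its start region (chr6:26017759-26017959, over the printed promoter) measured 5.11 and 4.95 CPM in WT on day 1, 5.36 and 4.70 on day 2, 5.44 and 5.21 on day 3, 4.67 and 7.78 on day 4 and 6.28 and 5.36 on day 5. In KO the values were 7.99 and 6.37, 10.9 and 6.67, 9.36 and 9.11, 11.1 and 10.6, and 10.4 and 7.89. Both KO libraries stood above both WT libraries on each of the 5 days.

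DATG followed WT at this start, with 4.27 and 4.38 CPM on day 1, 5.13 and 5.79 on day 2, 3.89 and 5.26 on day 3, 6.69 and 6.47 on day 4 and 6.79 and 6.96 on day 5. KO was higher than WT by 0.71 ± 0.10 (edgeR adjusted p 9.37e-09) and higher than DATG by 0.71 ± 0.10 (adjusted p 2.39e-07), which was the only histone region called between the mutant lines (0.522% and 1.32% of all regions). At day 0 the KO libraries had 11.9 and 8.69, WT 6.23 and 8.26 and DATG 7.84 and 7.06, so KO was again highest, without passing the test.

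Under SMADi the order at H1-1 was another. WT measured 4.21 and 5.91 CPM on day 1, 3.57 and 5.85 on day 4 and 4.85 and 4.10 on day 5, and KO 6.66 and 4.68, 2.76 in its 1 day 4 library, and 4.15 and 3.45. DATG had 4.74 in its 1 day 1 library, then 0.336 and 0.848 on day 4 and 1.02 on day 5, which are counts of 5, 14 and 22. The 3 later DATG libraries lay below every other library, while the day 1 library did not. DATG was lower than WT by a log2 difference of -1.71 ± 0.23 (edgeR adjusted p 2.13e-07), and its day 5 library lay below its day 1 library by -2.20 ± 0.48 (adjusted p 0.0002). Each DATG comparison of day 5 with day 1 sets 1 library against 1, so its SE and p take the spread from the other groups and hold no replicate check of DATG. KO exceeded DATG by 1.44 ± 0.25 (adjusted p 0.00244) and, without the doubted library, by 1.52 (adjusted p 0.00127), a call lost without KO day 4 replicate b (1.07) or the DATG day 5 library (1.22). The DATG change from day 1 to day 5 differed from that of WT by -2.01 ± 0.57 (adjusted p 0.0155, 0.0662 with DESeq2 and 0.0541 without WT day 1 replicate a).

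**Figure D4:**
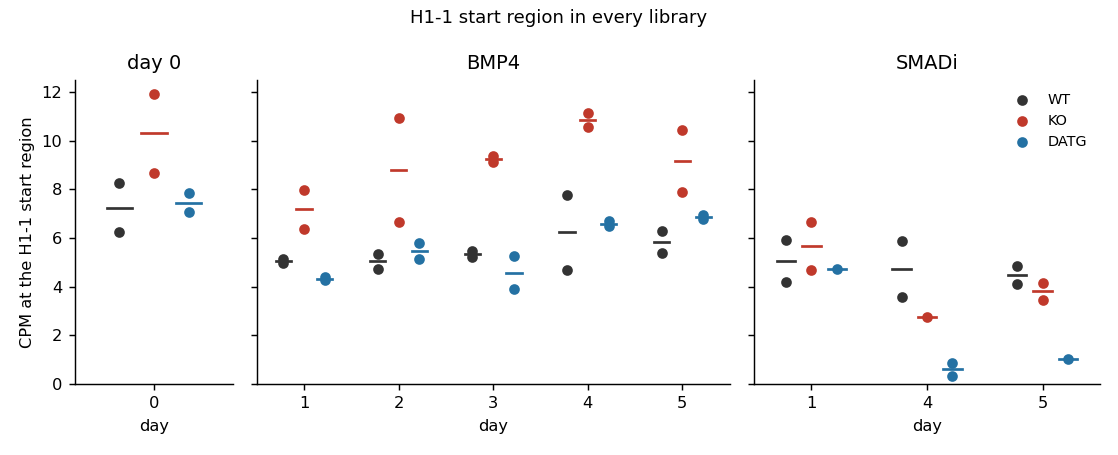
CPM at the H1-1 start region (y) in each library by day (x) at day 0, under BMP4 and under SMADi, with short bars at the mean of each line and day. KO libraries lie above WT on each BMP4 day, and the DATG libraries of SMADi days 4 and 5 lie at 0.336 to 1.02.

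Under SMADi, more histone gene regions were lower than higher in WT on day 5. From day 1 to day 5, 5 of 143 were higher and 31 lower (3.5% and 21.7%), against 23.9% and 17.1% of all regions, and 10.8% and 13.7% at other gene ends. The median change was -0.29, against -0.07 at those other ends. At the starts 0 of 39 rose and 10 fell (25.6%), where 16.6% of other gene starts rose and 7.33% fell. By class, 2 of 15 H1, 7 of 24 H2A, 9 of 40 H2B, 4 of 24 H3 and 9 of 40 H4 regions were lower, to be read against the 17.1% of all regions, and no test by class was run. By day 4, 5 were higher and 11 lower (20.7% and 12.4% of all regions). With total count scaling the day 5 split was 4 and 42, without WT day 1 replicate b it was 3 and 13, and without WT day 5 replicate a it was 4 and 14.

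Next to H3C12, the region at chr6:27889598-27889798 measured 6.07 and 5.33 CPM in WT on day 1, 4.45 and 2.74 on day 4 and 2.06 and 1.65 on day 5, a change of -1.66 ± 0.33 (edgeR adjusted p 5.89e-05). Past H1-5, the region that also fell under BMP4 measured 3.48 and 4.29 on day 1 and 1.03 and 1.52 on day 5 (-1.52 ± 0.37). Of starts, H3C7 fell most, from 9.37 and 8.06 to 3.82 and 5.10 CPM (-0.92 ± 0.23, adjusted p 0.00133). Day 1 and day 5 did not overlap in any of the 3.

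H2BC17 was the clearest rise in all lines. The region 1090 bases past its start measured 4.33 and 4.81 CPM in WT on day 1, 8.33 and 8.84 on day 4 and 10.0 and 9.66 on day 5. KO had 4.47 and 4.27 on day 1, 9.83 on day 4 and 16.1 and 13.0 on day 5, and DATG 3.99, then 9.14 and 9.75, then 13.3. Each later library stood above each day 1 library. The day 5 changes were 1.10 ± 0.21 in WT, 1.73 ± 0.20 in KO (1.69, and called, without the doubted library) and 1.73 ± 0.29 in DATG.

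In the mutant lines more histone regions rose than fell. KO had 34 of 143 regions higher on day 5 than on day 1 and 10 lower, where 31.5% and 29.4% of all regions and 40.5% and 13.3% of other gene ends were called. Without the doubted library the split was 26 and 9, and with total count scaling it was 17 and 25, a setting that moved the median of all regions from 0.01 to -0.25. DATG, from 1 library on each of the days, had 27 higher and 7 lower (25.4% and 23.8% of all regions). The members' median change was 0.12 in KO and 0.28 in DATG, under the 0.32 and 0.36 of other gene ends. Their starts rose at 12 of 39 in KO (30.8%), where 64% of other starts did, and at 9 (23.1%) without the doubted library, where 54.5% did.

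**Figure D5:**
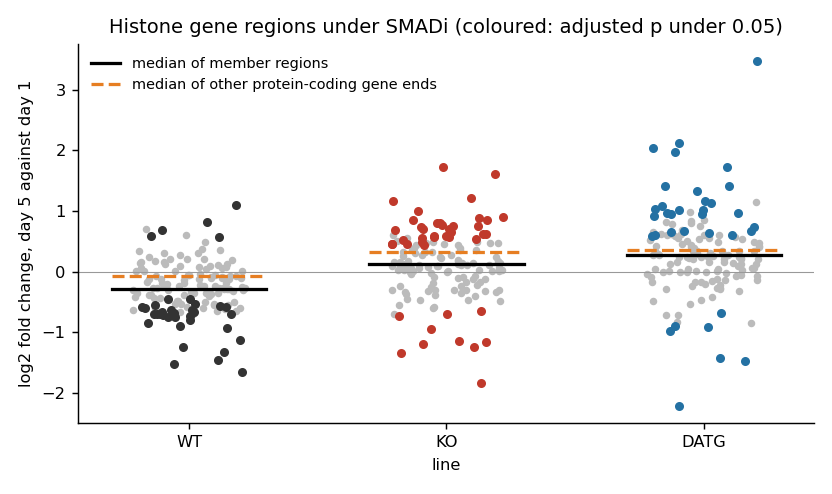
Log2 fold change from day 1 to day 5 under SMADi (y) for each histone gene region in WT, KO and DATG (x, points spread sideways for view). Coloured points passed the test, black lines are member medians (-0.29, 0.12 and 0.28) and dashed lines are medians of other protein-coding gene ends (-0.07, 0.32 and 0.36).

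The test of the difference between KO and WT in this change called 19 regions higher and 0 lower (6.89% and 12% of all regions). This is 13.3% of the members, near the 13.9% of other gene ends. The members' median difference was 0.45, against 0.37 there. For DATG 12 were higher and 1, H1-1, lower (5.1% and 8.78% of all regions, 9.95% and 1.91% of other gene ends). The rise at gene ends in general ran beside these calls, and its part in them was not tested. Leaving out the doubted library left 6 KO calls, DESeq2 made 9 for KO and 0 for DATG, and total count scaling left 5 for KO. Single WT libraries mattered as much: without WT day 1 replicate b the counts were 5 for each line, and without WT day 5 replicate b they were 36 and 40. KO calls also fell to 7, 5, 11 and 5 without WT day 1 replicate a, KO day 1 replicate a, WT day 5 replicate a and KO day 5 replicate a. The 2 WT day 5 libraries differed more from each other (chi-square per degree of freedom 3.11) than any other pair, and replicate a was the shallowest of its table.

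The H3C12, H2AC12 and H3C7 regions show these differences by library. At chr6:27890277-27890477, which overlaps H3C12, WT went from 3 and 3.57 CPM to 3.38 and 4.70, KO from 3.13 and 2.89 to 8.73 and 9.64, and DATG from 1.74 to 7.19. At the H2AC12 start WT went from 20.7 and 22.3 to 17.5 and 18.8, KO from 20.5 and 18.9 to 27.9 and 27.6, and DATG from 22 to 26.6. At the H3C7 start KO had 6.50 and 7.30 on day 1 and 7.73 and 7.35 on day 5, while WT fell as given above. On day 5 both KO libraries exceeded both WT libraries at each. The change in KO minus that in WT was 1.26 ± 0.38 at H3C12, 0.73 ± 0.20 at H2AC12 and 1.04 ± 0.32 at H3C7 (edgeR adjusted p 0.0165, 0.00826 and 0.0187). Without the doubted library these were 1.21, 0.68 and 1.14, of which the first no longer passed (adjusted p 0.0605, 0.0442 and 0.0357).

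Averaged over the SMADi days, 5 histone regions were higher and 9 lower in KO than in WT (17.8% and 21.6% of all regions), and 5 and 5 without the doubted library. Of 39 histone starts 3 were higher and 2 lower (7.69% and 5.13%), where 37.9% of other gene starts were higher and 3.93% lower. Without the doubted library the histone starts gave the same counts, where 28.4% of other starts were higher and 3.49% lower. The H1-4 start measured 14.4 and 14.1 CPM in WT on day 1 and 10.4 and 11.3 on day 5, and in KO 14.9 and 15.8, then 18.5 and 17.9. It was higher in KO by 0.34 ± 0.10 (edgeR adjusted p 0.00529; 0.33 without the doubted library) and kept its call under each alternative. The region 1405 bases past the H2AC8 start was lower in KO by a log2 difference of -0.87 ± 0.20 (-0.82 without the doubted library), and lost its call without KO day 4 replicate b (-0.56, adjusted p 0.0704). That is the only KO day 4 library. At the H4C4 region 1032 bases past the start, the KO difference of -0.65 (adjusted p 0.0421) turned to 0.15 (adjusted p 0.711) without it. In all, without it 4 regions were higher and 1 lower. The counts were 4 and 5 without WT day 1 replicate b and 22 and 7 without WT day 5 replicate b.

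For DATG against the same WT libraries 1 region was higher and 7 lower (11.1% and 17.4% of all regions). Of 39 histone starts 0 were higher and 2 lower (5.13%), where 21.1% of other gene starts were higher and 3.14% lower. The region higher in DATG lay at -585 bases from the H2BC5 start, near H1-4 (0.44 ± 0.15). Its call was lost with total count scaling, with the replicate block and with DESeq2. Besides H1-1, the region at -379 bases from the H2BC6 start was lower by a log2 difference of -0.72 ± 0.20 (edgeR adjusted p 0.00596) under each alternative. The other 5 lower regions lay at H4C4, H1-3, H4C6, H4C16 and H2BC26 and differed by -0.75 to -0.39. Without DATG day 1 the split was 12 higher and 5 lower, without WT day 1 replicate b or DATG day 4 replicate b it was 1 and 4, and without WT day 4 replicate b it was 0 and 5. Between KO and DATG only H1-1 was called (0.0437% and 0.016% of all regions).

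The genes that drive histone expression were followed at the most open region near each. Of 16 such genes, all measured, 9 were higher in WT on BMP4 day 5 than on day 1 and 0 lower. NPAT, the activator at histone loci, rose by 0.77 ± 0.13 (edgeR adjusted p 1.16e-06), HINFP, which binds H4 promoters, by 0.61 ± 0.13, CCNE1, cyclin E, by 0.79 ± 0.16 and SLBP by 0.48 ± 0.14. The NF-Y subunit genes NFYA, NFYB and NFYC rose by 0.67 ± 0.14, 0.69 ± 0.15 and 0.49 ± 0.14. Counts under the same test were 3 of 16 in KO and 6 in DATG, all higher, where 13.9% and 16.1% of other gene starts were higher.

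Of 11 replication-independent histone genes, which supply histones outside S phase, 4 were higher in WT on BMP4 day 5, including H2AZ1 (0.45 ± 0.14) and H3-3B (0.61 ± 0.13). Of 14 measured DNA replication genes 8 were higher, including PCNA, the polymerase clamp (0.67 ± 0.14), MCM3, a helicase subunit (0.50 ± 0.13), and CDC45 (0.53 ± 0.14). None of the 3 lists had a gene that was lower in WT. Read against the 38.6% of other gene starts that rose, no count here is called particular to its list.

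Under SMADi, WT had 3 of 16 expression genes higher and CDK2 lower (-0.49 ± 0.19), 1 of 11 replication-independent histone genes higher and 3 of 14 replication genes higher. Of other gene starts in WT, 16.6% were higher and 7.33% lower. KO had 16, 9 and 11 higher and 0 lower, with NPAT at 0.81 ± 0.12, SLBP at 0.48 ± 0.15, PCNA at 0.76 ± 0.13 and H2AZ1 at 0.90 ± 0.14. Without the doubted library the KO counts were 12, 8 and 11, with NPAT at 0.80, PCNA at 0.79 and H2AZ1 at 0.99, while SLBP did not pass (0.38, edgeR adjusted p 0.0985). From day 1 to day 5, 64% of other gene starts rose in KO. DATG, with 1 library on each of these days, had 4, 3 and 3 higher, where 32.4% of other gene starts were. The KO change exceeded that of WT at 6, 3 and 2 genes, among them NPAT (0.55 ± 0.17), CDK2 (0.94 ± 0.26) and H2AZ1 (0.64 ± 0.20), where it did so at 20.4% of other gene starts. Without the doubted library it exceeded that of WT at 2, 1 and 1 genes (13.2% of other starts). CDK2 (0.92) and H2AZ1 (0.76) were still called and NPAT was not (0.56, edgeR adjusted p 0.0572).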

How the data were processed

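The authors deposited 3 tables of raw ATAC-seq counts per region of fixed length, for day 0, BMP4 and SMADi, and each was analysed on its own. Per the submitters' processing notes, MACS2 and GRCh38 were used. Not given in the sources used here: the aligner, how duplicates were treated and whether cut sites were shifted. Groups came from the sample labels. Counts were tested with edgeR 4.0.16 in R 4.3.3 (TMM scaling, filterByExpr, robust quasi-likelihood F test, 1 mean per line and day), with Benjamini-Hochberg adjustment over all tested regions and a threshold of 0.05. The SE of a log2 fold change was computed as its size over the square root of F. The scripts were tested on simulated data. Alternatives were RLE and total count scaling, no filter, a replicate block, DESeq2 1.42.0, leaving out the doubted KO library (for the gene lists and position windows, chosen after the data were seen) and leaving out each library. Named were, in each class, the region of highest mean day 0 CPM, up to 10 called regions in each direction and comparison with the largest change (1 per gene), members with no region, and up to 4 called genes a list and direction; regions printed for their start and inner values, and other list genes, were chosen after their values were seen. Regions within 1 kb of a member's end were members' regions. The members, gene lists and tests were chosen with earlier results of these data known, and the position windows after the values were seen. Motifs were searched in RefSeq promoters.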

Additional observations from a re-analysis of the deposited data

Results flagged for a closer look

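Under SMADi the change from day 1 to day 5 differed between a mutant line and WT at several histone gene regions, by the edgeR test of the difference itself. For KO, 19 regions had a higher change than in WT, among them H2AC8 (1.27), the region overlapping H3C12 (1.26), H3C4 (1.24), H4C16 (1.21), H2AC7 (1.16), H2BC8 (1.15), H3C7 (1.04), H2BC6 (0.85), H2AC12 (0.73) and H4C1 (0.69), as log2 differences. That is 13.3% of the histone regions, near the 13.9% of other gene ends. Leaving out the doubted KO library gave 6, total count scaling 5 and DESeq2 9. Of the 10 named, H2AC8 (1.31), H3C4 (1.41), H3C7 (1.14) and H2AC12 (0.68) passed without that library. The other 6 did not: H4C16 (1.38), H2BC8 (1.32), H3C12 (1.21), H2AC7 (1.20), H2BC6 (0.82) and H4C1 (0.57).

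For DATG, 12 regions had a higher change and 1 a lower (8.39% and 0.699%, against 9.95% and 1.91% of other gene ends), and DESeq2 called 0. The higher ones named were H4C8 (3.74), H4C5 (2.05), H4C12 (2.03), H3C12 (1.69), H4C3 (1.63), H2BC21 (1.57), H2AC8 (1.43), H3C4 (1.40), H2AC7 (1.31) and H2BC8 (1.31), and the lower one was H1-1 (-2.01). The H2BC8 region named for DATG, at chr6:26216619-26216819, is not the one named for KO, at chr6:26215336-26215536. DATG has 1 library on each of these days, so its change rests on 1 library at each end and the spread is taken from the other groups.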

How the results depend on the processing

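Of 199 pairs of a named region and a comparison, 96 kept their direction and their side of the threshold under every alternative run, and 1 reversed: H4C4 under SMADi, KO against WT, at 0.15 without KO day 4 replicate b, and over all such refits from -0.77 to 0.15. The cause of the changes below was not tested. DESeq2 called fewer histone regions: under BMP4, 19 for WT day 5 against day 1, 34 for WT day 3, 15 for KO day 5, 14 for DATG day 5, 3 for KO against WT and 0 for DATG against WT. Under SMADi it called 10 for WT day 4, 6 for KO against WT, 2 for DATG against WT, 9 for the KO difference in change and 0 for the DATG one. Total count scaling gave 2 for KO against DATG under BMP4 and 5 for the KO difference in change under SMADi, and leaving out the doubted KO library gave 6 for the latter.

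The labels do not say whether a replicate letter marks a shared batch. Correlations of same-letter deviations ran from -0.15 to 0.20 under BMP4 and from -0.21 to 0.23 under SMADi. Such deviations hold counting noise, which weakens any correlation, so these values cannot decide whether the letters pair samples. With the replicate block, KO against DATG under BMP4 gave 2 calls, the KO difference in change under BMP4 gave 1, and DATG against WT under SMADi gave 4.

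Leaving out each library in turn gave, under BMP4, 21 to 44 calls for WT day 5, 35 to 69 for WT day 3, 14 to 40 for KO day 5, 14 to 31 for DATG day 5, 4 to 10 for KO against WT, 0 to 4 for DATG against WT, 1 to 3 for KO against DATG and 0 to 1 for the KO difference in change. Under SMADi it gave 16 to 45 for WT day 5, 10 to 24 for WT day 4, 31 to 50 for KO day 5, 31 to 41 for DATG day 5, 5 to 29 for KO against WT, 5 to 17 for DATG against WT, 0 to 1 for KO against DATG, and 5 to 36 and 5 to 40 for the KO and DATG differences in change. The DATG SMADi day 5 change could not be fitted without its single day 1 or day 5 library. Where only 1 library remained in a group it was assumed to vary like the others.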

Other observations

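For this count the chromosome 6 blocks and the stretches between them were taken as 1 span, from 25726063 to 27893891. Its regions therefore need not lie inside a block. Regions inside this span or the other clusters, but more than 1 kb from a histone gene end, fell more often than they rose. In WT, 5.95% of 269 such regions were higher and 18.2% lower on BMP4 day 3 than on day 1, and on day 5 the shares were 5.58% and 24.9%. Over all regions they were 18.6% and 15.7% on day 3 and 20.3% and 14.7% on day 5. Under SMADi, from day 1 to day 5, 6.14% of 277 were higher and 48.4% lower in WT, 14.4% and 50.5% in KO, and 10.8% and 39.4% in DATG. The shares over all regions were 23.9% and 17.1% in WT, 31.5% and 29.4% in KO, and 25.4% and 23.8% in DATG. The KO shares include the doubted library, and DATG has 1 library on each of these days.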
